A study of Brassica rapa subsp. pekinensis with 8 samples.

Results

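The 105 genes described here encode parts of the photosystems and of their light-harvesting antennae in Chinese cabbage (Brassica rapa). They were chosen from 38008 genes of the deposited data as those whose Arabidopsis-based description contains the words photosystem, light harvesting, light-harvesting or chlorophyll A/B. RNA was sequenced from an early-bolting inbred line, 4004, and a late-bolting inbred line, 50, before vernalization (day 0) and after 35 days of it. Line 50 has 3 libraries per day, numbered 1 to 3, and line 4004 has 1 library per day, numbered 3. Libraries 1 and 2 of line 4004 were not analysed here. Each library pooled several plants, and the sample labels name leaf tissue, whereas the methods name shoots. Plants went from a warm room with a long daily light period at day 0 to a cold room with a shorter one, and no warm-grown plants of the same age are named, so cold, day length and age cannot be told apart at day 35. Both lines are unmodified inbred lines, and no transgene or mutation separates the groups.

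In photosynthesis, light is absorbed by chlorophyll-binding antenna proteins and passed to photosystem II (PSII), which splits water, and to photosystem I (PSI), which reduces ferredoxin. The PSII antenna is built from LHCB proteins. LHCB1, LHCB2 and LHCB3 form the abundant trimers of LHCII, and LHCB4, LHCB5 and LHCB6 are the minor antenna proteins that link those trimers to the PSII core. LHCA proteins form the belt of antennae around PSI. The core proteins that bind the reaction centre are encoded in the chloroplast, while nearly all genes here are nuclear and encode antennae, peripheral subunits and assembly factors. Brassica rapa often keeps several copies of 1 Arabidopsis gene.

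By the Arabidopsis locus of each gene, 23 were LHCB genes (9 of LHCB1, 4 of LHCB2, 2 of LHCB3, 3 of LHCB4, 2 of LHCB5 and 3 of LHCB6), 10 were LHCA genes, 25 encoded nuclear PSI subunits and 21 nuclear PSII subunits. A further 14 belonged to the wider PsbP family of the thylakoid lumen, 8 were assembly factors or small PSII proteins, and 4 were gene models named after chloroplast loci. The genes of PSBS, a PSII protein of energy dissipation, have a description that is worded otherwise and are not among the 105. Copies in other families whose description lacks the chosen words would be missed in the same way. The gene numbers per family are therefore those of the set. All 105 passed the filter on low counts. Reads of near-identical copies cannot be assigned with certainty, so the values of single copies in families such as LHCB1 are uncertain, and sums over a family are given as well.

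Library totals ran from 18287387 to 27135881 raw counts, and both libraries numbered 3 of line 50 were the smallest. These libraries stood apart from numbers 1 and 2 at both days. Their TMM factors were 0.763 and 0.710, against 1.07 to 1.19 in the other line 50 libraries, and results that rest on them are given with and without them. The leaf label was checked with markers. Summed normalized read counts of 13 leaf marker genes (the Rubisco small subunit, Rubisco activase and a carbonic anhydrase) ran from 833825 to 1550544 at day 0 and from 612332 to 1325575 at day 35 in line 50, and were 495095 and 767820 in line 4004. The 3 root marker genes summed to 3 to 7 in every library. A gene without reads stood at 1 on this scale, or at 2 in the line 50 libraries numbered 3. The 3 shoot meristem markers summed to 472 to 1597, most of it CLV1 (Bra015812), at 470 to 1416. Among them STM (Bra027050) was at 1, 2 and 2 in line 50 at day 0, where the value of library 3 means no reads. It was at 59, 52 and 66 at day 35, and at 1 and 24 in line 4004. The part of a changed tissue makeup in the results below was not tested, and in bulk RNA fewer cells of a type and less RNA per cell cannot be told apart.

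The 105 genes held a large share of every library, most of it LHCB. Their share of all raw counts in line 50 was 15.6, 13.6 and 23.6% in libraries 1, 2 and 3 at day 0 and 10.9, 12.4 and 22.2% at day 35. The days overlapped, and library 3 was the highest at each day. In line 4004 the share was 13.3% at day 0 (95% Wilson interval 13.29 to 13.32%) and 14.7% at day 35 (14.71 to 14.73%), where the intervals cover counting error only. LHCB genes made up most of it, with 8.83 to 15.2% of all counts in line 50 at day 0 and 7.82 to 17.1% at day 35. LHCB1 alone took 7.33, 6.51 and 11.2% at day 0 and 5.82, 7.03 and 13.8% at day 35. LHCA genes, PSI subunits and PSII subunits each held 0.96 to 3.01% of the counts of a line 50 library.

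**Figure D1:**
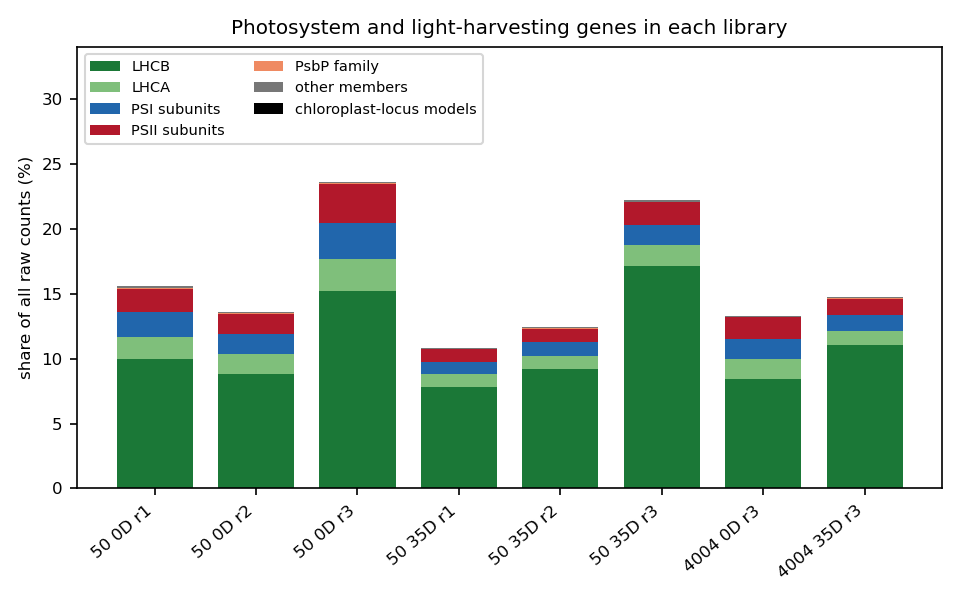
Share of all raw counts (y axis, %) held by the 105 genes in each of the 8 libraries (x axis, line, day and replicate number), stacked by subgroup. LHCB genes fill most of every bar, and the line 50 libraries numbered 3 reach 23.6% and 22.2%, above the other 6 libraries.

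Between day 0 and day 35 the balance of counts within the apparatus differed, with LHCB1 and LHCB2 making up more of it at day 35 in every library. This was read first as ratios of raw counts inside 1 library, which need no scaling between libraries. Summed LHCB1 and LHCB2 counts over summed LHCB3 to LHCB6 counts were 6.06, 5.98 and 6.46 in line 50 libraries 1, 2 and 3 at day 0 and 8.57, 9.22 and 12.1 at day 35. In line 4004 the same ratio was 6.07 at day 0 and 10.8 at day 35. All 4 libraries of day 0 lay between 5.98 and 6.46, and all 4 of day 35 lay above them.

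The same was seen against PSI. LHCB1 and LHCB2 over the PSI subunits gave 4.48, 4.89 and 4.71 at day 0 and 7.24, 8.08 and 10.7 at day 35 in line 50, and 4.72 and 8.53 in line 4004. All LHCB over all LHCA counts gave 6.02, 5.93 and 6.22 at day 0, 8.12, 9.21 and 10.3 at day 35, and 5.58 and 10.2 in line 4004. PSI subunits over PSII subunits did not separate the days, with 0.929 to 1.06 at day 0 and 0.831 to 1.01 at day 35 in line 50, and 0.905 and 0.934 in line 4004. LHCB1 and LHCB2 were put together after their values had been seen, so these ratios are a description and carry no test.

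**Figure D2:**
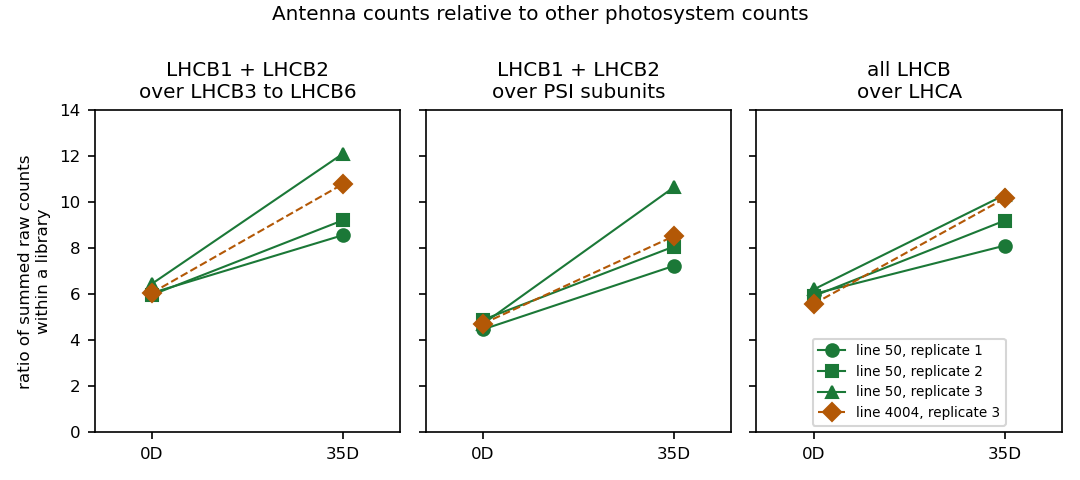
Ratio of summed raw counts within a library (y axis, no unit) at day 0 and day 35 (x axis) for 3 pairs of gene groups; lines join the libraries of the same line and replicate number. In each panel every day 35 library lies above every day 0 library, for example 8.57 to 12.1 against 5.98 to 6.46 for LHCB1 and LHCB2 over LHCB3 to LHCB6.

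Within LHCB, the 9 LHCB1 genes had summed normalized read counts of 1737226, 1505664 and 3312988 at day 0 and 1235889, 1548694 and 4353941 at day 35 in line 50. With libraries paired by their number alone, the day 35 to day 0 ratio was 0.71, 1.03 and 1.31 for numbers 1, 2 and 3. The pairs did not share a direction. The 4 LHCB2 genes gave 296472, 245166 and 580219 at day 0 and 249968, 287374 and 621479 at day 35, with ratios of 0.84, 1.17 and 1.07. LHCB2 is the LHCII protein whose phosphorylation drives state transitions in Arabidopsis. Of the 13 LHCB1 and LHCB2 genes, 8 had a positive log2 fold change and none passed the test (median 0.10 on the edgeR log2 scale). That median was -0.05 without replicate 3, so its direction depended on those libraries.

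The other LHCB families were lower at day 35 in every pair. LHCB3, the third trimer protein, summed to 47159, 41998 and 87249 at day 0 and 24044, 28346 and 50518 at day 35. The ratios were 0.51, 0.67 and 0.58. LHCB6 gave ratios of 0.42, 0.58 and 0.65, LHCB4 0.48, 0.64 and 0.67, and LHCB5 0.66, 0.82 and 0.81. All 10 genes of LHCB3 to LHCB6 had a negative log2 fold change (median -0.74), with none called. Without replicate 3, all 3 LHCB6 genes were called lower, where 9.89% of all genes were.

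Single LHCB1 copies differed in their share of the family. Bra032345 held 2.94, 2.92 and 3.24% of the summed level of the 8 other copies at day 0 and 3.67, 3.58 and 3.96% at day 35. Bra005425 held 12.3, 12.5 and 12.2% at day 0 and 8.66, 8.95 and 8.27% at day 35. The same directions were seen in line 4004, with 3.58 and 4.33% for Bra032345 and 8.45 and 6.38% for Bra005425. These 2 copies were chosen after their values had been seen, and reads shared between copies limit what their shares show.

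Across the whole set in line 50, 2 of the 105 genes fell and none rose from day 0 to day 35 in edgeR's quasi-likelihood test (adjusted p under 0.05 and at least 2-fold). Of all 31191 tested genes, 1.69% were called lower and 2.23% higher, so 2 of 105 is close to the background. At an unadjusted p under 0.05 the count was 13 of the 105, against 20.5% of all genes. The signs of the log2 fold changes were less even: 90 of the 105 were negative, against 49.3% of all genes, and the median was -0.61, against 0.01 over all genes. A day 35 value below the day 0 value in all 3 pairs was found for 75 of the 105, against 30.2% of all genes, whereas a day 35 range wholly below the day 0 range was found for 12, against 12.9%.

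The count of calls depended on how replicate 3 was treated. With the replicate number as a block, 14 of the 105 were called lower and none higher, against 7.69% and 7.94% of all genes, and both genes called without the block were among them. The 14 were 2 LHCA, 4 PSI, 2 PSII and 5 PsbP family genes and a PSII 5 kD protein gene, and no LHCB gene. An unadjusted p under 0.05 was found for 68 of the 105 with the block, against 39.7% of all genes. Without replicate 3, 27 were called lower and none higher, against 9.89% and 10.5% of all genes, and 13 of the 27 were also called with the block. An unadjusted p under 0.05 was found for 87 in that fit, against 54.6% of all genes. DESeq2 called 6 lower and none higher, against 4.4% and 5.08% of all genes. Without replicate 1, or without replicate 2, none was called. The share of all genes called in these fits was not computed, so this absence of calls cannot be set against a background.

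**Figure D3:**
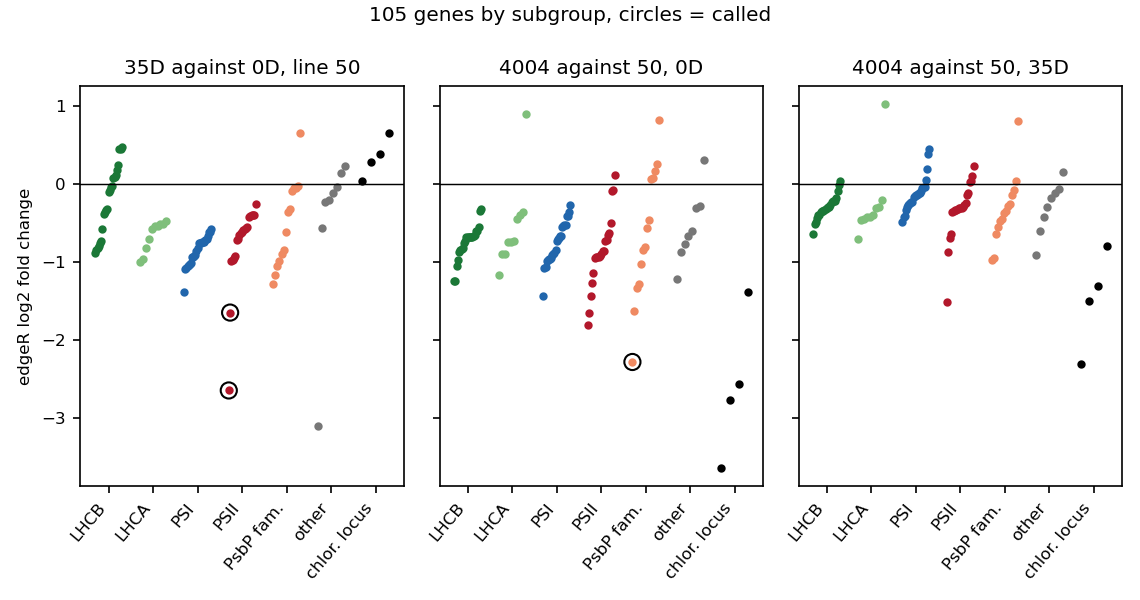
edgeR log2 fold change (y axis) of each of the 105 genes, by subgroup (x axis), in 3 comparisons; circled points passed an adjusted p under 0.05 and a 2-fold change. From day 0 to day 35 in line 50 all LHCA, PSI and PSII points lie below 0 and 2 PSII genes are circled, and the LHCB points run from -0.88 to 0.48.

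The genes that fell were both subunits of the oxygen-evolving complex, the lumenal proteins PSBO, PSBP and PSBQ that shield the water-splitting cluster of PSII. The PSBQ copy Bra013517 had normalized read counts of 11975, 10566 and 14655 at day 0 and 1544, 1703 and 2600 at day 35 in line 50, and the days did not overlap. Its log2 fold change was -2.65 ± 0.37 (SE, n = 3 per day, edgeR adjusted p = 0.0185). The adjusted p was 0.0020 with the replicate block and reached 0.35 in the least favourable of the alternatives.

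The other PSBQ copy, Bra029563, moved less. It was at 38433, 33791 and 49209 at day 0 and 18241, 20251 and 23999 at day 35 (-0.95 ± 0.37, adjusted p = 0.21). As a percentage of Bra029563, Bra013517 was 31.2, 31.3 and 29.8% at day 0 and 8.46, 8.41 and 10.8% at day 35. In line 4004 it was 14.995% at day 0 and 6.63% at day 35, so the ratio was already lower in that line before vernalization.

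The PSBP copy Bra018294, expressed far below its sister copies, was at 869, 639 and 1086 at day 0 and 255, 285 and 285 at day 35 (-1.65 ± 0.30, adjusted p = 0.035). The adjusted p was 0.0061 with the block, and its range over the alternatives was 0.00016 to 0.51. As a share of the other 3 PSBP copies it was 0.489, 0.427 and 0.353% at day 0 and 0.318, 0.340 and 0.179% at day 35. These 3 copies had log2 fold changes of -0.99, -0.97 and -0.92, and none passed. Of PSBO, the set held only Bra038863, and copies whose description is worded otherwise would have been missed. Bra038863 was at 32062, 28345 and 60636 at day 0 and 16460, 17247 and 39766 at day 35. Its log2 fold change was -0.70 ± 0.57 (edgeR adjusted p = 0.57), and it does not stand for PSBO copies outside the set.

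Among the smaller PSII subunits no gene passed. PSBR (3 genes), which helps to attach the oxygen-evolving proteins, had summed ratios of 0.59, 0.81 and 0.74. PSBW, which stabilises PSII and LHCII supercomplexes in Arabidopsis, gave 0.52, 0.72 and 0.68, and the small membrane proteins PSBX and PSBY gave 0.49, 0.61 and 0.88, and 0.59, 0.84 and 0.68. All 21 PSII subunit genes were lower at day 35 in all 3 pairs, and their median log2 fold change was -0.61.

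All 25 PSI subunit genes were also lower in all 3 pairs, with a median of -0.81, and none was called in line 50 by edgeR in the fit of all 8 libraries without the block. DESeq2 called 2 of them lower, against 4.4% of all genes, and edgeR without replicate 3 called 8, against 9.89%. PSAD and PSAE form the stromal docking site for ferredoxin. PSAD (Bra036240) was at 31940, 27357 and 74789 at day 0 and 13439, 14870 and 40620 at day 35, and the summed PSAE genes had ratios of 0.44, 0.55 and 0.56. PSAF, on the side that receives electrons from plastocyanin, gave 0.43, 0.70 and 0.46. PSAH, PSAL and PSAO, which in Arabidopsis take part in docking LHCII to PSI, gave 0.47, 0.61 and 0.52, then 0.47, 0.60 and 0.63, then 0.47, 0.63 and 0.67. Of the PSAH copies, Bra014317 had the lowest value, with 9504, 7949 and 12011 at day 0 and 3910, 4419 and 5496 at day 35. Its days did not overlap (-1.08 ± 0.33, adjusted p = 0.13, and 0.013 with the block).

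PSAP, also described in Arabidopsis as a protein that bends thylakoid membranes, had the most negative PSI value. Its main copy Bra040482 was at 15158, 10640 and 14691 at day 0 and 5270, 5732 and 4551 at day 35. The days did not overlap, and the log2 fold change of -1.38 ± 0.29 missed the threshold at an edgeR adjusted p of 0.051. It passed with the block (adjusted p = 0.012), and over the 105 genes 4 PSI genes did so, the others being 2 PSAH copies and the PSAE copy Bra010350.

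The 10 LHCA genes were lower in every pair as well (median -0.56). LHCA4 (Bra018144), a main antenna protein of PSI, was at 57664, 51247 and 71879 at day 0 and 25505, 27957 and 35762 at day 35, without overlap (-1.003 ± 0.39, adjusted p = 0.21, and 0.026 with the block). LHCA1, LHCA2 and LHCA3 summed to ratios between 0.49 and 0.77. LHCA5 and LHCA6 are scarce proteins that in Arabidopsis tie PSI to the NDH complex of cyclic electron flow. LHCA6 (Bra016522) was at 2741, 2748 and 4104 at day 0 and 918, 834 and 3030 at day 35, so that the days overlapped only through replicate 3. Its log2 fold change was -0.96 ± 0.59 (adjusted p = 0.43), and it was called with the block (adjusted p = 0.030) and without replicate 3.

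**Figure D4:**
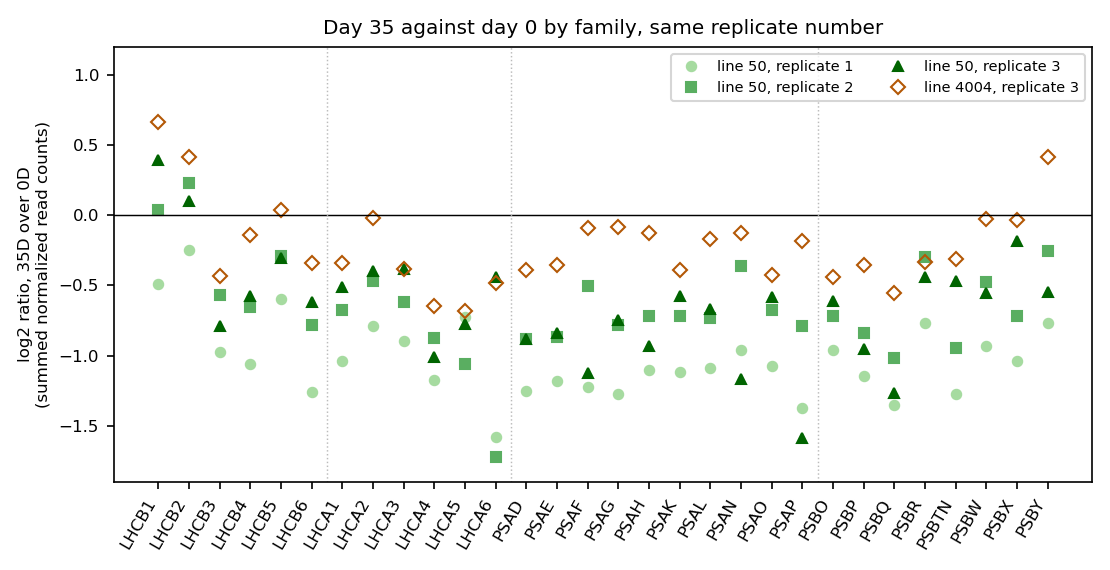
Log2 ratio of summed normalized read counts at day 35 over day 0 (y axis) for each family (x axis: LHCB, LHCA, PSI and PSII subunits, split by dotted lines), for the 3 same-numbered pairs of line 50 and for line 4004. Only LHCB1 and LHCB2 have points of line 50 above 0, and in line 4004 LHCB1, LHCB2, LHCB5 and PSBY lie above 0.

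The largest fold among the 105 genes, which did not pass the test, was that of a small PSII protein. The PSII 5 kD protein gene Bra018907 was at 2077, 1644 and 7782 at day 0 and 194, 195 and 937 at day 35, without overlap. Its log2 fold change was -3.10 ± 0.96 (adjusted p = 0.13), replicate 3 was the highest library at each day, and the gene was called with the block (adjusted p = 0.0010). Line 4004 went from 2614 to 465.

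Among the assembly factors no gene passed the edgeR test without the block. HCF136, which is needed to assemble the PSII reaction centre, was at 6653, 6674 and 5991 at day 0 and 6299, 6687 and 7933 at day 35 (0.14 ± 0.26, adjusted p = 0.84). PSB29 and LPA19 had log2 fold changes of -0.12 and -0.20, and the 2 PSB27 genes, for another assembly protein, had summed ratios of 0.53, 0.68 and 1.15. PSB28 (Bra011047), a PSII assembly protein, was at 1093, 1159 and 2733 at day 0 and 455, 441 and 2386 at day 35. It was called lower without replicate 3 and not with the block.

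In the PsbP family 13 of 14 genes had a negative value (median -0.49), and none was called in the edgeR fit without the block. With the block 5 were called lower, against 7.69% of all genes, and without replicate 3 also 5, against 9.89%. DESeq2 called 1 lower, against 4.4%. The exception in sign was Bra015696 (AT1G77090), at 521, 421 and 728 at day 0 and 792, 774 and 1048 at day 35 (0.66 ± 0.33, adjusted p = 0.32). The models named after the chloroplast loci psbC, psaA, psbE and psbB had low values, 5 to 279 at day 0 and 6 to 372 at day 35 in line 50. Libraries were made from polyadenylated RNA, so these models are no measure of chloroplast transcripts.

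Replicate 3 of line 50 did not differ from numbers 1 and 2 by a common factor. For 81 of the 105 genes it was the highest library at both days, against 28.5% of all genes, and for 15 it was the lowest at both days, against 39.8%. All 23 LHCB and all 10 LHCA genes were among the 81. The 3 PSBTN genes, for a small lumenal PSII subunit, showed the widest gap. Bra001809 was at 9979, 8617 and 39528 at day 0 and 4271, 4492 and 28296 at day 35. Bra023909 was at 2657, 2207 and 11580, and at 983, 1161 and 8789.

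PSAN, another lumenal PSI subunit near the plastocyanin site, went the other way. Its copy Bra037761 was at 26701, 20631 and 9381 at day 0 and 13844, 15551 and 4339 at day 35, and all 3 PSAN copies were lowest in replicate 3 at both days, as were 10 of the 14 PsbP family genes. Leaf marker sums were also highest in replicate 3 at both days, and the part of tissue or of library preparation in this was not tested.

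**Figure D5:**
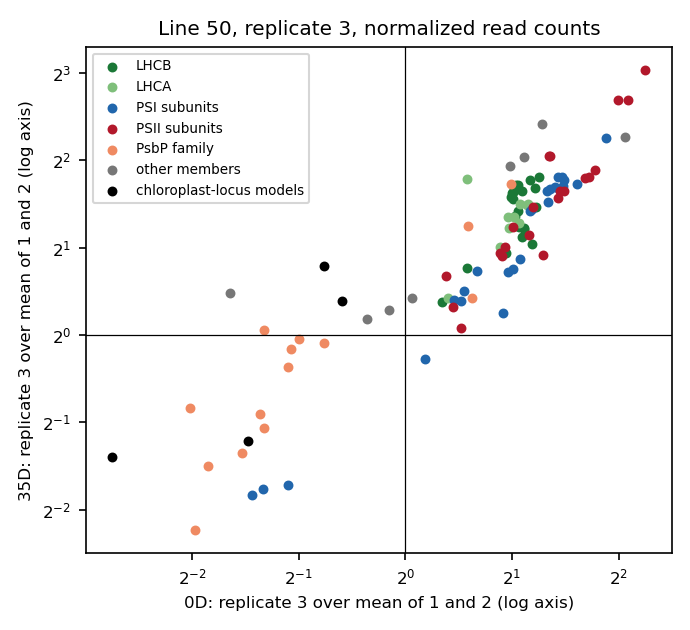
Normalized read count of line 50 replicate 3 divided by the mean of replicates 1 and 2, at day 0 (x axis) and day 35 (y axis), both on log axes with 1 marked by a line; each point is 1 of the 105 genes, coloured by subgroup. PSBTN genes lie at the upper right with ratios of 3.98 to 4.76 at day 0 and 6.45 to 8.20 at day 35, and PSAN and most PsbP family genes lie at the lower left.

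Line 4004 had 1 library per day, and its response on its own was not tested. On normalized read counts the median log2 ratio of day 35 over day 0 was -0.12 over the 105 genes and 0.00 over all tested genes. A ratio of 2 or more was reached by 3 of the 105, against 8.53% of all genes, and a drop of the same size by 3, against 10.4%. All 13 LHCB1 and LHCB2 genes were higher at day 35, where 49.3% of all genes were, and all were higher on library totals too. Summed LHCB1 went from 1370586 to 2171306, a ratio of 1.58, and summed LHCB2 from 242989 to 323759, a ratio of 1.33.

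The LHCB1 copies Bra030182, Bra032345, Bra010807 and Bra005423 had the highest ratios among well expressed genes with Bra014681, at 0.93, 0.93, 0.88, 0.69 and 0.80 on the log2 scale. Bra030182 went from 177814 to 339595. All 10 LHCA genes, 22 of 25 PSI and 16 of 21 PSII genes were lower at day 35. LHCA4 went from 37593 to 24066 and LHCB3 from a sum of 49882 to 36956. PSBQ Bra013517 went from 4109 (95% Poisson interval of the count 3985 to 4236) to 1338 (1268 to 1411), 3.07-fold lower, and Bra018294 was 1.76-fold lower. Scaling by library totals moved the median over the 105 genes to -0.26. It left 28 of them higher at day 35, against 37 on normalized read counts.

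The 3 with a ratio of 2 or more were chloroplast-locus models. The psbB model Bra040977 had 31 (Poisson interval of the count 21.2 to 43.8) at day 0 and 192 (166 to 221) at day 35, the psaA model Bra041122 13 and 43, and the psbE model Bra041107 13 and 28. In line 50 these models were at 185, 272 and 151 against 232, 337 and 372, then 164, 279 and 33 against 209, 308 and 98, then 82, 107 and 34 against 81, 105 and 40. They are named after their values had been seen.

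Before vernalization, line 4004 had lower values than the fitted level of line 50 for most of the set, and the size of that gap depended on replicate 3 of line 50. Of the 105 genes 97 had a negative log2 difference (51.9% of all genes did), with a median of -0.74 against -0.04 over all genes. The line 4004 library was below every line 50 library for 56 of them, against 22.8% of all genes. Without replicate 3 the median was -0.24, and with library totals it was -0.43, where the median of all genes itself was 0.19. In edgeR 1 gene was called lower and none higher, against 0.292% and 1.2% of all genes, and each test sets 1 library against 3. An unadjusted p under 0.05 was found for 8, against 13.5%. DESeq2 called 5 lower and none higher, against 2.11% and 2.9% of all genes.

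The called gene was Bra014681 (AT3G56650), a PsbP family protein. It was at 1470, 1455 and 863 in line 50 and at 266 in line 4004 (95% Poisson interval of the count 235 to 300), with no overlap (-2.28 ± 0.40, edgeR adjusted p = 0.048). The call was lost with library totals (adjusted p = 0.16), with no filter (0.057), with 1 subtracted from every count (0.060), with only the groups compared (0.15), without replicate 1 (0.48) and without replicate 2 (0.49), and it held with the block (0.029), in DESeq2 and without replicate 3. At day 35 it was at 702, 697 and 659 in line 50 and at 464 in line 4004. The lowest values by size beside it were PSBTN Bra023909 (-1.80 ± 1.69), PSBQ Bra013517 (-1.66 ± 0.55), PSAP Bra040482 (-1.43 ± 0.44) and PSBTN Bra031247 (-1.43 ± 1.48), none of which passed. Bra013517 was at 4109 in line 4004, below the 10566 to 14655 of line 50, and Bra040482 at 5207, below 10640 to 15158.

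The line 4004 library was above every line 50 library for 2 of the 105 genes at day 0, against 33% of all genes. At day 35 it was so for 4, against 26.2%. LHCA5 (Bra014048) was at 1035, 1124 and 1998 in line 50 and at 2740 in line 4004 at day 0, and at 625, 538 and 1170 against 1707 at day 35. It lay above all line 50 libraries at both days (0.90 ± 0.62 and 1.03 ± 0.61, edgeR adjusted p = 0.62 and 0.9997), and it was called higher at both days without replicate 3. PSBR Bra003624 was at 39555 in line 4004, between replicates 1 and 2 (21109 and 16443) and replicate 3 (64511) of line 50. The chloroplast-locus models were lower in line 4004 at each day than in any line 50 library, all 4 of them. At day 0, 1 was called lower with the block, 3 in DESeq2 and 3 without replicate 3. Of all genes, 2.91%, 2.11% and 13.6% were called lower in those fits.

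With the replicate block 26 genes were called lower and none higher at day 0, against 2.91% and 4.66% of all genes, and the median was -1.51. In that fit the line 4004 library is set against line 50 number 3, the library with the highest values for most of these genes, and a pairing of the number across lines could not be checked. Without replicate 3, 13 were called lower and 2 higher, against 13.6% and 14.4% of all genes, with 3 of the 13 among the 26. An unadjusted p under 0.05 was found for 52 of the 105 in that fit, against 57.5% of all genes.

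After vernalization no gene of the set passed the test between the lines. None of the 105 was called in either direction by edgeR, against 0.353% of all genes called higher and 0.093% called lower. None had an unadjusted p under 0.05, against 6.37% of all genes. DESeq2 called none, against 0.606% higher and 0.782% lower, and 2 of the 105 had an unadjusted p under 0.05 in it, against 6.39%. With the block none was called, against 0.494% higher and 0.458% lower, and 55 had an unadjusted p under 0.05, against 24.2%. The median was -0.29, turned to 0.37 without replicate 3, and for PSI subunits was -0.14 and turned to 0.08 with library totals, so no direction can be given. Without replicate 3, 5 were called higher and 4 lower, against 7.6% and 8.75% of all genes, and 62 had an unadjusted p under 0.05, against 47.7%. Beside LHCA5, the highest values by size were those of PSAP Bra004504, PSAH Bra021163, PSBR Bra003624 and PSAH Bra027188, at 0.45, 0.39, 0.24 and 0.20, and the lowest were those of PSBTN Bra023909, Bra031247 and Bra001809, LHCA6 and PSB27 Bra030537.

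The responses of the lines to vernalization were then compared directly, as the difference of their day 35 against day 0 log2 fold changes. For 97 of the 105 genes the value was more positive in line 4004, with a median of 0.47 against -0.02 over all genes (with library totals, 0.35 against -0.20). The share of all genes with that sign was not computed. All 105 values rest on the same unreplicated line 4004 libraries, so the count of genes does not stand for replication. No gene of the set was called by edgeR, against 0% of all genes in either direction, and 2 had an unadjusted p under 0.05, against 3.06%. DESeq2 called none of the set, against 0.0321% and 0.189% of all genes, and 2 had an unadjusted p under 0.05 in it, against 3.08%. With the block none was called and 5 had an unadjusted p under 0.05, against 9.52%. The largest difference among well expressed genes was that of Bra014681 (1.64 ± 0.49, adjusted p = 0.9999), followed by PSAP Bra004504 (1.14 ± 0.77), PSBY Bra004252 (1.05 ± 1.09), PSBQ Bra013517 (1.02 ± 0.71) and PSBY Bra033982 (0.96 ± 1.23). Without replicate 3, 8 were called with a more positive response in line 4004 and none with a more negative one, against 2.3% and 4.18% of all genes, and 61 had an unadjusted p under 0.05, against 27.7%.

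The rest of the photosynthetic pathway was followed with lists made by Arabidopsis locus. In the edgeR fit without the block, no gene was called from day 0 to day 35 in line 50 among 25 genes of electron transport and ATP synthase (median log2 fold change -0.46), 25 of chlorophyll synthesis (-0.27), 26 of the Calvin cycle (-0.29), 14 regulators of photosynthesis genes (0.08), 6 of antenna targeting to thylakoids (-0.35), 5 thylakoid proteases (-0.25) and 3 photosystem kinase and phosphatase genes (-0.30). With the block, 2 electron transport genes were called lower, and of the chlorophyll synthesis genes 1 was called higher and 2 lower. In that fit 7.94% of all genes were called higher and 7.69% lower. Without replicate 3, 3 electron transport genes were called lower, and 2 chlorophyll synthesis genes higher and 3 lower. There 10.5% of all genes were called higher and 9.89% lower. The regulator GLK2, which promotes antenna and chlorophyll genes in Arabidopsis, has a copy Bra033726 that was at 1642, 1217 and 3138 at day 0 and 472, 413 and 768 at day 35. It was chosen after its values were seen, and its log2 fold change of -1.86 ± 0.49 missed the threshold (adjusted p = 0.090) and passed with the block (adjusted p = 0.0034). Line 4004 went from 1752 to 511.

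The Calvin cycle fixes carbon dioxide with the products of the light reactions. All 26 of its genes were higher at day 35 in line 4004, where 49.3% of all genes were. Their median log2 ratio was 0.62, while in line 50 their median was -0.29. Line 4004 against line 50 had a median of -1.09 for these genes at day 0 and -0.29 at day 35. Each rests on 1 line 4004 library, and the part of a low day 0 library in the rise was not tested. The difference of the lines' responses was called for none of the 26 in edgeR. Without replicate 3 it was called more positive in line 4004 for 12, where 2.3% of all genes were, and more negative for none, where 4.18% were.

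Of 13 genes of early light-induced proteins, their relatives and the xanthophyll cycle, 4 rose and none fell in line 50 by edgeR, where 2.23% of all genes were called higher and 1.69% lower. Each of the 4 lost its call in some alternatives, with adjusted p up to 0.30, 0.33, 0.29 and 0.69 in the order given here. The early light-induced proteins (ELIPs) are chlorophyll-binding relatives of the LHC proteins that accumulate under excess light and cold. ELIP Bra023798 was at 34, 23 and 99 at day 0 and 710, 634 and 2428 at day 35 (4.65 ± 0.88, adjusted p = 0.039). Bra001886 was at 12, 12 and 35, then 162, 147 and 557 (3.92 ± 0.79, adjusted p = 0.046), and Bra033911 at 24, 31 and 68, then 340, 299 and 910 (3.70 ± 0.68, adjusted p = 0.036). None of these ranges overlapped between days. The zeaxanthin epoxidase gene Bra037130 was the last of the 4, at 1716, 1578 and 2158, then 5292, 4895 and 3859 (1.36 ± 0.27, adjusted p = 0.045).

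At day 0, 2 genes of that list, both ELIP copies, were called higher in line 4004 by edgeR and none lower. Of all genes, 1.2% were called higher and 0.292% lower. Each test set 1 library against 3, and both calls were lost in some alternatives. The ELIP copies Bra023798 and Bra033911 were at 1307 and 498 in line 4004, above 23 to 99 and 24 to 68, and did not pass. Bra001886 was at 822 in line 4004, above the 12 to 35 of line 50 (5.31 ± 0.92, adjusted p = 0.047), and Bra036883 at 245, above 16 to 26 (3.60 ± 0.55, adjusted p = 0.032). At day 35 edgeR called no gene of the list between the lines in the fit of all 8 libraries, against 0.353% of all genes higher and 0.093% lower. Without replicate 3, 5 were called higher in line 4004 and none lower, against 7.6% and 8.75% of all genes. Among 9 tested genes of chlorophyll breakdown and senescence, both copies of the senescence regulator NAP rose in line 50. Of all genes, 2.23% were called higher. No other gene of the list was called, and their log2 fold changes had both signs. Both NAP calls were lost in some alternatives, with edgeR or DESeq2 adjusted p up to 0.23. Bra004385 was at 172, 81 and 96 at day 0 and 1792, 1394 and 694 at day 35 (3.46 ± 0.44, adjusted p = 0.014), and Bra003998 was at 402, 168 and 243, then 2885, 2795 and 1726 (3.19 ± 0.39, adjusted p = 0.013). Of the marker lists, none of the 13 leaf markers was called in line 50 in the edgeR fit without the block. With the block 2 were called lower, where 7.69% of all genes were. These were the carbonic anhydrase copies Bra039113 and Bra040520 (edgeR adjusted p = 0.020 and 0.017). Without replicate 3 none of the 13 was called, against 9.89% of all genes called lower. Of 3 meristem markers 2 rose in the fit without the block, STM above and KNAT1 (Bra000638) at 1, 1 and 2, then 81, 67 and 115. The KNAT1 value of 2, in library 3, means no reads. The third, CLV1 (Bra015812), did not pass and its pairs did not share a direction. It was at 712, 875 and 888, then 478, 564 and 1416 (0.04 ± 0.48, edgeR adjusted p = 0.98). Of 3 dividing cell markers CYCB1;1 (Bra011769) was called lower in line 4004 at day 0, at 51 against 326, 320 and 231. The calls of STM, KNAT1 and CYCB1;1 were each lost in some alternatives.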

How the data were processed

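Raw counts were deposited by the authors as whole numbers per gene. They trimmed the reads with SolexaQA and mapped them with Bowtie2 to a Brassica rapa gene set, and the sources used here do not say how reads matching more than 1 gene were counted. The lowest raw value in every library was 1, which was read as no reads. The deposited normalized read counts (a score that the authors made by DESeq scaling and rounding) describe levels. They were close to a fixed multiple of the raw count in each library (1.61 to 1.63 times in line 50 day 0 replicate 3, 1.68 to 1.74 times in day 35 replicate 3, for genes over 5000 raw counts). They compare libraries, not genes, since no lengths were used. The authors' own ratio columns were not used. No sequence was printed, because no reference sequence could be matched to these gene models. The members and lists were chosen with earlier results of these data known.

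Raw counts of 31191 genes passing filterByExpr were fitted in edgeR 4.0.16 (R 4.3.3; TMM, quasi-likelihood F test, 1 coefficient per group, 8 libraries). Calls needed a fold change of 2 or more in either direction and a p under 0.05 after Benjamini-Hochberg adjustment over these genes. Line 4004 adds no residual degrees of freedom (4 in all, from line 50), and its libraries are assumed to vary like those of line 50. The methods call the replicates independent and biological, each a pool of plants. Poisson intervals are exact (95%), were computed after taking 1 off the raw count and adding it again to both bounds, and cover counting error only. Totals were 24662237, 25133648 and 18287387 counts (line 50, day 0), 27135881, 23910966 and 18446844 (day 35), and 22479258 and 25291776 (line 4004). The fit was tested on simulated counts first.

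Line 50 libraries were paired by their replicate number. Deviations from the group means correlated at 0.45, 0.62 and 0.69 between same-numbered libraries of the 2 days. Number 1 with number 2 was as close (0.47 and 0.56), so these values do not show that 1 and 2 are true pairs. The pairs of numbers 1 and 2 rest on the number alone, and the block mostly separates number 3. Alternatives were DESeq2 1.42.0, its size factors, library totals, no filter, 1 subtracted from each count, only the groups compared, no fold threshold, a mean of at least 500, the replicate block, and leaving out replicates.

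Genes named were called ones, the 5 highest and 5 lowest members per comparison with a mean of at least 500, the highest copy of each family, the 5 with the widest replicate spread, and up to 3 called genes of each other list; others are marked as chosen after their values were seen, or serve to complete a family.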

Additional observations from a re-analysis of the deposited data

Results flagged for a closer look

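A few genes and families were lower at day 35 in all 3 same-numbered pairs of line 50 and higher in line 4004. For the summed LHCB5 genes the log2 ratio of normalized read counts was 0.037 in line 4004, against -0.60, -0.29 and -0.30 in line 50. For the summed PSBY genes it was 0.41, against -0.77, -0.26 and -0.55. These 2 differences were not tested, and line 4004 has 1 library per day. The single genes were PSBY Bra004075, Bra004252 and Bra033982 (0.26, 0.47 and 0.57 in line 4004), PSAP Bra004504 (0.12), Bra014681 of the PsbP family (0.80), PSBW Bra018305 (0.033), PSAH Bra027188 (0.021) and LHCB5 Bra037913 (0.046). For each of these genes the difference of the responses was tested in edgeR and did not pass (adjusted p = 0.9999). On library totals the line 4004 ratio turned negative for summed LHCB5 (-0.11), Bra004504 (-0.02), Bra018305 (-0.11), Bra027188 (-0.13) and Bra037913 (-0.10), and stayed positive for summed PSBY (0.27) and Bra014681 (0.66).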

How the results depend on the processing

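The count of genes called lower at day 35 in line 50 was 2 and became 4 with library totals, 6 with DESeq2 and 14 with the replicate block. The 1 gene called lower in line 4004 at day 0 became 0 with library totals, with no filter on low counts, with 1 subtracted from every count and with only the groups compared, 5 with DESeq2 and 26 with the replicate block, where the median log2 fold change was -1.51. Leaving out 1 replicate or library of line 50 gave 0 to 27 genes lower at day 35, 0 to 2 higher and 0 to 13 lower in line 4004 at day 0, 0 to 5 higher and 0 to 4 lower at day 35, and 0 to 8 called for the difference of the responses. The medians then ran from -1.20 to -0.066 for day 35 against day 0 and from -0.53 to 0.38 for the lines at day 35. The line 4004 median was -0.261 with library totals and -0.125 with TMM factors, and its shares were 13.33% and 14.74% with 1 subtracted.

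With the replicate block the log2 difference between the lines turned for Bra003624 (-0.90 at day 0, -0.75 at day 35), Bra004504 (-0.063 at day 35), Bra015696 (-0.33 at day 0) and Bra027188 (-0.31 at day 35), and the difference of the responses for Bra011047 (0.082). With library totals the day 0 difference turned for Bra008392 (0.28) and Bra035087 (0.30). The block turned no other gene result named and brought 9 past the threshold. The cause was not tested.

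Leaving out 1 replicate or library turned the day 35 against day 0 value in line 50 of LHCB1 and LHCB2 Bra005423 (-0.56 to 0.73), Bra010807 (-0.40 to 0.95), Bra030181 (-0.66 to 0.68), Bra030182 (-0.36 to 1.03), Bra032345 (-0.47 to 1.04) and Bra039070 (-0.51 to 0.64), of PSBTN Bra001809 (-2.20 to 0.55), Bra023909 (-2.41 to 0.72) and Bra031247 (-2.23 to 0.44), and of Bra004075 (-1.12 to 0.0039), Bra008392 (-1.33 to 0.50), Bra010774 (-1.65 to 0.032), Bra011047 (-1.93 to 0.086), Bra014433 (-1.06 to 0.016), Bra018305 (-1.38 to 0.23), Bra030722 (-1.82 to 0.45) and Bra035533 (-1.52 to 0.27). Between the lines it turned at day 0 Bra003624 (-0.24 to 1.07), Bra008392 (-0.43 to 0.80), Bra015696 (-0.11 to 0.39) and Bra035087 (-0.42 to 0.84), and at day 35 Bra001809 (-1.12 to 0.92), Bra003624 (-0.10 to 1.27), Bra016522 (-1.03 to 0.26), Bra023909 (-1.98 to 0.38), Bra030537 (-1.26 to 0.16) and Bra031247 (-1.30 to 0.74). For the difference of the responses it turned Bra011047 (-0.93 to 1.10), Bra033412 (-0.45 to 1.23), Bra035087 (-0.79 to 1.08) and Bra038584 (-0.41 to 0.88). None of the values that turned had passed the test in the fit of all 8 libraries. Without replicate 3, some turned values had an edgeR adjusted p under 0.05 and stayed below a 2-fold change. These were Bra001809 (0.92) and Bra031247 (0.74) at day 35, and Bra008392 (0.80) and Bra035087 (0.84) at day 0. Depth limits the 4 chloroplast-locus models, which rest on 3 to 372 normalized read counts.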
